A study of Mus musculus with 8 samples.

Results

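The genes described here are homeobox genes that lie outside the Hox clusters, taken from 18 families of developmental transcription factors: Dlx, Lhx, sine oculis (Six2 and its relatives), Nkx, Pax, Meis, Pbx, Irx, Otx, Emx, Msx, Isl, Barx, Gsx, Pitx, Prrx, Alx and Vax. They were chosen by symbol alone, a family name followed by a digit with no antisense or Rik suffix and without Lhx1, which gave 78 of the 28460 gene symbols in the deposited table. Their expression was compared by RNA-seq in cells from the testes of mice on postnatal day 12, between 4 libraries of Brg1 wild-type animals (Brg1 WT) and 4 libraries of Brg1 conditional knockouts (Brg1 cKO), all on a mixed genetic background and untreated as far as the labels say. The design text calls the libraries of a genotype biological replicates. The sources used here do not give the Cre driver, the cells in which it acts or the deleted exons. The cells were released with collagenase and trypsin and filtered through a sieve, without a marker sort in the labels, and are labelled spermatogenic cells. They also held RNA of somatic cells, since Sertoli cell markers summed to between 6300 and 10440 CPM per library, with CPM meaning counts per library scaled to a common total. In such mixed samples fewer cells of a type and less RNA per cell cannot be told apart.

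A homeobox encodes the homeodomain, a fold of helices whose last helix lies in the major groove of DNA. The proteins set regional and cell identity in the embryo, and most are switched off outside the tissues they pattern, where many of their promoters are held by Polycomb complexes. LIM, sine oculis and PAX proteins carry further domains beside the homeodomain, and TALE proteins such as Pbx and Meis bind DNA together with other homeodomain proteins. In the gonad, Lhx9 and Six4 are known for their part in forming the early organ, and Pbx4 for its expression in spermatocytes. Brg1, the product of Smarca4, is an ATPase that drives SWI/SNF chromatin remodelling.

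Smarca4 matched the labels, with 337.9 to 356.7 CPM in Brg1 WT and 110.9 to 129.2 CPM in Brg1 cKO. Library totals were 20456743 to 32596038 estimated counts. Median log2 fold changes were -0.37 over 15 pan-germ cell markers, 0.38 over 21 Sertoli cell markers, 0.66 over 11 Leydig cell markers and 0.59 over 18 myoid and stromal markers. Pan-germ cell markers summed to 2460 to 3256 CPM in Brg1 WT and to 1903 to 2444 CPM in Brg1 cKO, without overlap. Brg1 WT replicates 1 and 2 stood apart in markers of pachytene cells and spermatids, which summed to 116.2 and 103 CPM there, to 64.8 and 52.3 CPM in Brg1 WT replicates 3 and 4, and to 30.5 to 31.5 CPM in Brg1 cKO. The difference was not confined to these markers. In Brg1 WT replicates 1 to 4, pan-germ cell markers summed to 3256, 2784, 2460 and 2504 CPM. Sertoli cell markers summed to 6300, 6455, 7377 and 8169 CPM. Results are therefore also given without Brg1 WT replicates 1 and 2. In the lists of markers of germ, somatic, muscle, nerve and duct cells that were examined, no gene was at 0 in all 8 libraries.

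Most of the homeobox genes that changed were lower in Brg1 cKO, and Lhx2 and Dlx1, which were counted well in both genotypes, fell more than 3-fold. Of the 46 members with enough counts to be tested, 17 fell and 4 rose at an adjusted p under 0.05 (edgeR quasi-likelihood test over 16059 genes), and 25 did not pass. Among all tested genes 11.8% were called lower and 8.79% higher. The 17 falls included 13 of at least 2-fold, while 2.64% of all tested genes were called lower by that size, and no member was called higher by 2-fold or more. The median log2 fold change was -0.42 over the tested members and 0.013 over all tested genes. With the pan-germ cell median taken as no change the calls were 13 lower and 9 higher, and with the Sertoli cell median 26 lower and 0 higher, where 0 were higher at an unadjusted p under 0.05. Some members passed the filter on low counts through Brg1 WT only. The filter kept 13 members that were over its cutoff of about 0.392 CPM in all 4 Brg1 WT libraries but in fewer than 4 Brg1 cKO libraries. The reverse held for 0 members. Of those 13, 7 were called lower, all by at least 2-fold (Dlx4, Isl1, Isl2, Irx2, Msx2, Otx1 and Pax7). Among the other 33 tested members 10 were called lower, 6 of them by at least 2-fold, and 4 higher. With the filter dropped, 19 members were called lower and 5 higher, against 7.33% and 5.05% of all genes in that fit. Over all 78 members, tested or not, the Brg1 cKO libraries were all below the Brg1 WT libraries for 25 and all above them for 9, and the genotypes overlapped for 44. The same orders held for 11.2% and 7.93% of all genes with a count. The p-values cover the spread between these libraries.

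**Figure D1:**
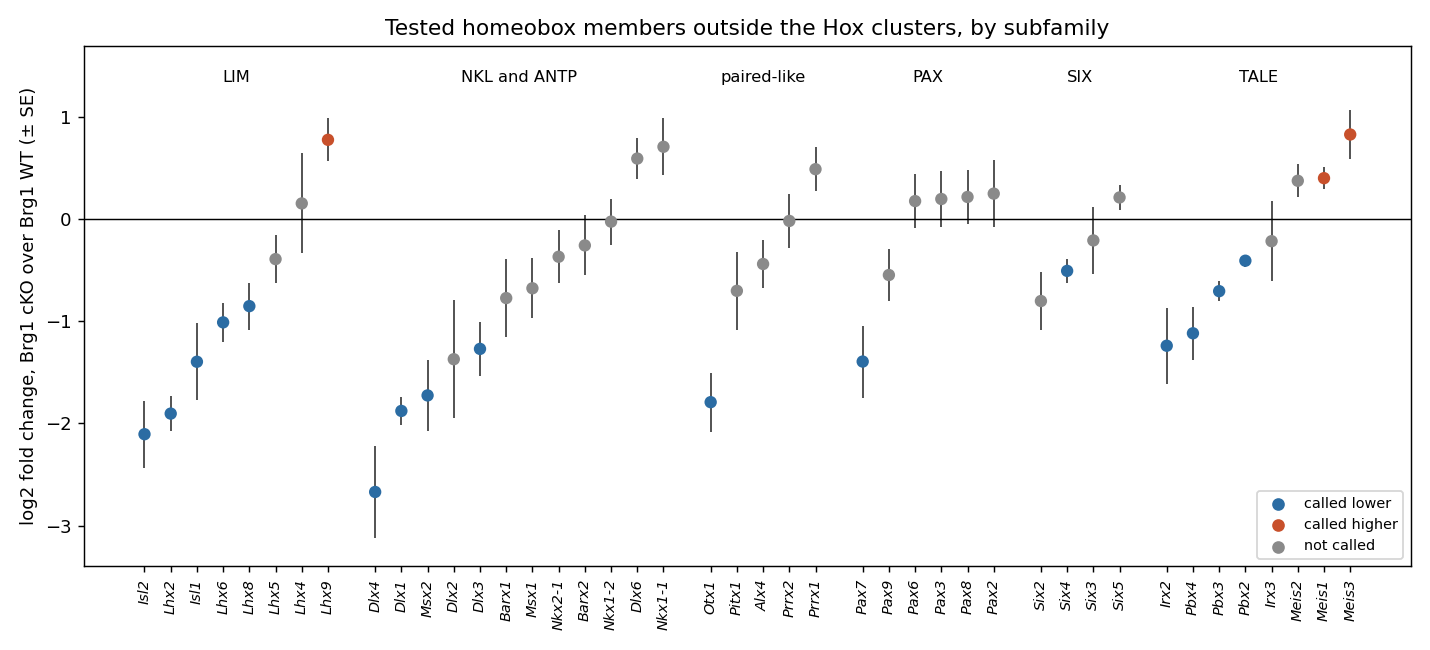
Log2 fold change of Brg1 cKO over Brg1 WT (vertical axis) for 43 of the 46 tested members, grouped by subfamily, with points coloured by call and bars of 1 SE. The genes called lower reach from -0.40 (Pbx2) to -2.67 (Dlx4), and those called higher from 0.40 (Meis1) to 0.83 (Meis3).

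What the members share is shown by the coding sequence of the last homeodomain helix, read from mouse GENCODE M21 transcripts. A stretch of codons for tryptophan, phenylalanine, any residue, asparagine, any residue and arginine was found in 71 of the 78 members, among them all 21 that were called. Barx1 and Barx2 have a tyrosine codon in place of the phenylalanine codon, and Pax1, Pax2, Pax5, Pax8 and Pax9, which lack a complete homeodomain, have neither form. The following 60 bases of coding sequence, 5′ to 3′, are given for members that the results below turn on, with those 18 bases in capitals. The third codon in capitals differs between many of the families, and the codon before the last also varies.
Lhx2: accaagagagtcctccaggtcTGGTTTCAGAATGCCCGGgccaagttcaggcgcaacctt
Lhx9: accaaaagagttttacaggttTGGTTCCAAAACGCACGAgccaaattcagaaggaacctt
Dlx1: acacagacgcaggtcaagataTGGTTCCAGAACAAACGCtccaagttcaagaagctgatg
Dlx4: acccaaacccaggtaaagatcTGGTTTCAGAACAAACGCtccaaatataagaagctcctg
Otx1: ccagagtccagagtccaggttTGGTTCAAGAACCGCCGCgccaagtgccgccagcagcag
Pax7: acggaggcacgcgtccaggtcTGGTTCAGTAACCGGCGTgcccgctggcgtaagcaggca
Pbx2: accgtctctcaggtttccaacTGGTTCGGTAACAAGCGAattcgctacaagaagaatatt
Pbx3: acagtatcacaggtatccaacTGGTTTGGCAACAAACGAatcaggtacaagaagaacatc
Pbx4: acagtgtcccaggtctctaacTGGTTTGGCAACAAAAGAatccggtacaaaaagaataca
Meis1: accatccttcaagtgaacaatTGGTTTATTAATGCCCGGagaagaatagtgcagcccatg

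The third codon codes for glutamine in 43 members, which include the Lhx, Isl, Dlx and Msx genes. It codes for lysine in the 11 sine oculis, Otx and Pitx genes. It codes for serine in Pax3, Pax4, Pax6 and Pax7, and for alanine in the 6 Irx genes. Glycine codons mark the Pbx genes, and isoleucine codons the 3 Meis genes. Lhx2 and Lhx9 have the same base at 46 of the 60 positions and moved in opposite directions.

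LIM homeobox genes, whose products carry a pair of LIM domains that bind cofactors, held 9 members, of which 8 were tested: 5 fell, 1 rose and 2 did not pass. For this and the subfamilies below, the shares over all tested genes were 11.8% lower and 8.79% higher. A subfamily with 1 called gene is too small to be read against these shares. Lhx2, a gene of forebrain, eye and hair follicle development, stood at 6.28, 6.33, 8.04 and 6.76 CPM in Brg1 WT replicates 1 to 4 and at 1.56, 1.90, 1.64 and 2.23 CPM in Brg1 cKO replicates 1 to 4, an order of replicates kept for all values that follow. All 4 Brg1 cKO libraries were far below the lowest Brg1 WT library. It averaged 6.85 ± 0.821 CPM in Brg1 WT against 1.83 ± 0.300 CPM in Brg1 cKO (SD, n = 4), with log2 fold change -1.90 ± 0.17 (SE) and adjusted p 0.000583. Lhx6, a gene of cortical interneurons and of the jaw, stood at 5.31, 6.23, 5.77 and 5.45 CPM in Brg1 WT and at 2.27, 3.92, 2.54 and 2.51 CPM in Brg1 cKO (log2 fold change -1.01 ± 0.19, adjusted p = 0.00919). Replicate 2 was the highest of the Brg1 cKO libraries and still below every Brg1 WT library. In GENCODE M21 the gene Gm27953 overlaps Lhx6 on the same strand. Lhx8, which is needed by oocytes and by cholinergic neurons, stood at 5.94, 4.75, 6.11 and 7.98 CPM in Brg1 WT and at 2.88, 4.59, 2.49 and 3.76 CPM in Brg1 cKO (log2 fold change -0.85 ± 0.23, adjusted p = 0.0302). The groups nearly met, at 4.75 and 4.59 CPM. Isl1 and Isl2, genes of motor neurons, were scarce, with 90 and 128 counts over all Brg1 WT libraries and 29 and 24 over all Brg1 cKO libraries. Isl1 ranged from 0.728 to 0.877 CPM in Brg1 WT and from 0.0989 to 0.510 CPM in Brg1 cKO (log2 fold change -1.40 ± 0.38, adjusted p = 0.0306), and Isl2 from 0.773 to 1.34 CPM and from 0.160 to 0.366 CPM (log2 fold change -2.11 ± 0.33, adjusted p = 0.00465). Both were over the filter cutoff in all 4 Brg1 WT libraries, but Isl1 in only 1 Brg1 cKO library and Isl2 in 0.

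Lhx9, which is needed to form the gonad, was the LIM gene that rose. It stood at 2.51, 4.02, 3.88 and 3.73 CPM in Brg1 WT and at 6.88, 7.44, 5.42 and 4.57 CPM in Brg1 cKO, and the groups did not overlap. It averaged 3.53 ± 0.693 CPM in Brg1 WT against 6.08 ± 1.31 CPM in Brg1 cKO (SD, n = 4), with log2 fold change 0.78 ± 0.21 (SE) and adjusted p 0.0306. Its lowest library, Brg1 WT replicate 1, was also the lowest in markers of myoid and stromal cells, which summed to 1681 CPM there. Their sum was between 2621 and 2874 CPM in Brg1 WT replicates 2 to 4 and 2351 to 3928 CPM in Brg1 cKO. That library was not low in stromal markers alone. Its sums of Sertoli, Leydig and endothelial cell markers, 6300, 158.8 and 174.5 CPM, were also the lowest of all libraries. Its pan-germ cell sum, 3256 CPM, was the highest. Leydig cell markers summed to 158.8 to 176.3 CPM in Brg1 WT and to 209.9 to 246.5 CPM in Brg1 cKO, without overlap. Most of the Leydig sum was Nr5a1, which is also in the Sertoli cell list. Nr5a1 ranged from 100.1 to 119.2 CPM in Brg1 WT and from 121.1 to 148.1 CPM in Brg1 cKO. Cyp11a1, Cyp17a1, Hsd3b1, Star, Insl3 and Lhcgr overlapped between the genotypes. Of the 11 Leydig cell markers 3, with Nr5a1 among them, were called higher and 8 were not called. The part of these cells in the rise was not tested. The ratio of Lhx9 to Lhx2 within a library, which needs no scaling between libraries and which was looked at after the values were seen, was 0.400 to 0.635 in Brg1 WT and 2.05 to 4.41 in Brg1 cKO. It is a ratio of CPM not divided by gene length, so it compares libraries and not the levels of the 2 genes. Lhx5, the most abundant tested LIM gene among the 2 that did not pass, ranged from 0.792 to 1.18 CPM in Brg1 WT and from 0.659 to 0.873 CPM in Brg1 cKO (adjusted p = 0.253). The calls of Lhx8, Lhx9 and Isl1 were lost when single libraries were left out: in 5 of 8 such fits for Lhx8 (without Brg1 WT replicates 1, 3 or 4 or Brg1 cKO replicates 1 or 3, adjusted p = 0.0578 to 0.0867), in 7 for Lhx9 (each library but Brg1 cKO replicate 4, 0.0532 to 0.0855) and in 6 for Isl1 (each but Brg1 cKO replicates 2 and 4, 0.0597 to 0.0831). With the median of the Sertoli cell markers taken as no change the log2 fold change of Lhx9 was 0.40 (adjusted p = 0.142), and with that of the pan-germ cell markers the log2 fold change of Lhx8 was -0.48 (adjusted p = 0.097).

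The NKL and ANTP genes, here Nkx, Dlx, Msx, Emx, Barx, Vax and Gsx, form the largest subfamily with 31 members, of which 18 were too scarce to test. Of the 13 tested 4 fell, 9 did not pass and 0 rose. With DESeq2, 2 members of this subfamily were called higher, and 2 were higher at an unadjusted p under 0.05 with edgeR. Dlx1, a gene of forebrain interneurons and of the jaw, had the smallest adjusted p of all members. It stood at 8.33, 8.19, 8.17 and 10.3 CPM in Brg1 WT and at 2.20, 2.47, 2.39 and 2.40 CPM in Brg1 cKO. The libraries of each genotype lay close together, except that Brg1 WT replicate 4 was above the rest, and the genotypes were widely apart. It averaged 8.74 ± 1.03 CPM in Brg1 WT against 2.37 ± 0.119 CPM in Brg1 cKO (SD, n = 4), with log2 fold change -1.88 ± 0.14 (SE) and adjusted p 0.000203. The adjusted p stayed between 0.000875 and 0.00202 with any single library left out. Its antisense gene Dlx1as overlaps it on the other strand, and the sources used here do not say whether the counting used strand, so reads of the 2 cannot be told apart.

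Dlx3, a gene of placenta, skin and teeth, and Dlx4, its neighbour on chromosome 11, both fell. Dlx3 stood at 2.97, 4.64, 3.82 and 2.77 CPM in Brg1 WT and at 1.37, 1.97, 1.56 and 0.940 CPM in Brg1 cKO (log2 fold change -1.27 ± 0.26, adjusted p = 0.0122). Dlx4 had the largest fall of all called members, averaging 1.16 ± 0.372 CPM in Brg1 WT against 0.171 ± 0.117 CPM in Brg1 cKO (SD, n = 4, log2 fold change -2.67 ± 0.45, adjusted p = 0.00582). That fall rests on 128 counts over the Brg1 WT libraries and 17 over the Brg1 cKO libraries, and Dlx4 is overlapped by the antisense gene Dlx4os. Msx2, a gene of skull and limb, ranged from 0.780 to 1.57 CPM in Brg1 WT and from 0.264 to 0.566 CPM in Brg1 cKO (log2 fold change -1.73 ± 0.35, adjusted p = 0.0111). No library of Dlx3, Dlx4 or Msx2 crossed between the genotypes. Dlx4 and Msx2 were over the filter cutoff in all 4 Brg1 WT libraries, but in only 0 and 1 Brg1 cKO libraries. Dlx2 and Msx1 were likewise lower in all 4 Brg1 cKO libraries without passing the test, with log2 fold changes of -1.37 ± 0.58 (adjusted p = 0.118) and -0.67 ± 0.29 (adjusted p = 0.127). Dlx6 was higher in all 4, with 2.71, 3.31, 4.37 and 4.72 CPM in Brg1 WT and 6.72, 4.76, 5.96 and 5.34 CPM in Brg1 cKO, and did not pass either (log2 fold change 0.60 ± 0.20, adjusted p = 0.0652).

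Paired-like genes, here Otx, Pitx, Prrx and Alx, had 10 members and 5 tested, of which 1 fell, 4 did not pass and 0 rose. At an unadjusted p under 0.05, 1 was higher with edgeR, and with DESeq2 0 were called higher. Otx1, a gene of the cerebral cortex and inner ear, stood at 1.6, 2.17, 2.38 and 1.48 CPM in Brg1 WT and at 0.651, 0.478, 0.733 and 0.350 CPM in Brg1 cKO. Its lowest Brg1 WT library held more than the highest Brg1 cKO library (log2 fold change -1.79 ± 0.29, adjusted p = 0.00500). Otx1 was over the filter cutoff in all 4 Brg1 WT libraries but in only 3 Brg1 cKO libraries. Prrx1, a gene of mesenchyme, stood at 10.1, 18.7, 15.6 and 18.4 CPM in Brg1 WT and at 28.4, 21.4, 21.8 and 16.6 CPM in Brg1 cKO, and the groups overlapped (log2 fold change 0.49 ± 0.21, adjusted p = 0.128). Like Lhx9 it was lowest in Brg1 WT replicate 1, the library with the lowest sums of stromal, Sertoli, Leydig and endothelial cell markers.

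PAX genes carry a paired domain and, in some, a homeodomain. Of 9 members 6 were tested, of which 1 fell, 5 did not pass and 0 rose, and 0 were higher by DESeq2 or at an unadjusted p under 0.05. Pax7, known from muscle satellite cells and from rare spermatogonia, fell, averaging 0.720 ± 0.191 CPM in Brg1 WT against 0.270 ± 0.0955 CPM in Brg1 cKO (SD, n = 4, log2 fold change -1.39 ± 0.35, adjusted p = 0.0244). It rests on 83 counts over the Brg1 WT libraries and 26 over the Brg1 cKO libraries, passed the filter through Brg1 WT only, and lost its call in 5 of the 8 fits without a single library (without Brg1 WT replicates 1, 2 or 3 or Brg1 cKO replicates 1 or 3, adjusted p = 0.0592 to 0.0641). Markers of skeletal muscle summed to 32.8 to 48.9 CPM in Brg1 WT and to 22.6 to 29.8 CPM in Brg1 cKO. The largest part of that sum was Actn3, and the muscle regulators Myod1 and Myf5 were at or below 0.204 CPM in every library. In Brg1 cKO replicate 4, Actn3 was 13.6 of 29.8 CPM, beside Myh1 at 10.3 CPM. Pax2, a gene of kidney and genital ducts, ranged from 2.30 to 6.63 CPM in Brg1 WT and from 4.48 to 7.14 CPM in Brg1 cKO (log2 fold change 0.25 ± 0.32, adjusted p = 0.602). Its sign turned to -0.21 without Brg1 WT replicates 1 and 2.

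The sine oculis homeobox genes encode proteins that act with EYA cofactors, and 5 of 6 were tested. None of the 5 was called higher, with 0 higher by DESeq2 or at an unadjusted p under 0.05. Six4, which acts in muscle, kidney and gonad, fell. Six4 stood at 7.95, 9.82, 9.07 and 9.19 CPM in Brg1 WT and at 6.35, 6.15, 5.89 and 6.98 CPM in Brg1 cKO, without overlap (log2 fold change -0.50 ± 0.12, adjusted p = 0.0182). The call of Six4 was lost without Brg1 WT replicate 2 or Brg1 cKO replicates 1 or 3 (adjusted p = 0.0505 to 0.0587), and with the pan-germ cell median taken as no change its log2 fold change was -0.14 (adjusted p = 0.34). Six2 was lower in all 4 Brg1 cKO libraries without passing (log2 fold change -0.80 ± 0.28, adjusted p = 0.0711). Six5, which lies beside the gene of myotonic dystrophy, ranged from 16.0 to 21 CPM in Brg1 WT and from 19.0 to 24.4 CPM in Brg1 cKO (log2 fold change 0.22 ± 0.12, adjusted p = 0.225).

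TALE genes, named for a loop of extra residues in the homeodomain, held both rises and falls. Of 13 Meis, Pbx and Irx members 9 were tested, and 4 of these fell. Pbx2, Pbx3 and Pbx4, whose products are partners of Hox and of other homeodomain proteins, were among the falls. Pbx2 stood at 91.8, 89.9, 92.7 and 93.0 CPM in Brg1 WT and at 68.4, 74.9, 69.8 and 64.3 CPM in Brg1 cKO, with little spread (log2 fold change -0.40 ± 0.058, adjusted p = 0.00341). Pbx3 stood at 40.7, 31.6, 33.7 and 33.5 CPM in Brg1 WT and at 22.8, 19.3, 20.5 and 23.2 CPM in Brg1 cKO (log2 fold change -0.70 ± 0.10, adjusted p = 0.00341). Pbx4, the Pbx gene of spermatocytes, stood at 6.65, 5.18, 3.54 and 3.09 CPM in Brg1 WT and at 1.97, 2.51, 1.84 and 2.18 CPM in Brg1 cKO (log2 fold change -1.12 ± 0.26, adjusted p = 0.0178). No Brg1 cKO library of these 3 genes reached the lowest Brg1 WT library. Pbx4 was highest in Brg1 WT replicates 1 and 2, the libraries with the highest sums of pachytene and spermatid and of pan-germ cell markers. Without those libraries its log2 fold change was -0.64 ± 0.22 (adjusted p = 0.139). Its call was also lost without Brg1 WT replicate 2 or Brg1 cKO replicates 1 or 3 alone (adjusted p = 0.05 to 0.0540). With the pan-germ cell median taken as no change the log2 fold change of Pbx2 was -0.037 (adjusted p = 0.604), so its fall was of the size of that median. Pbx2 shares exon sequence with Gpsm3 on the same strand, and the split of reads between the 2 is uncertain.

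The Meis genes, which encode partners of Pbx, were all higher in each Brg1 cKO library than in any Brg1 WT library. Meis1 stood at 17.2, 20.6, 21.6 and 22.0 CPM in Brg1 WT and at 26.2, 24.5, 31.0 and 25.9 CPM in Brg1 cKO (log2 fold change 0.40 ± 0.11, adjusted p = 0.0297). Meis3 stood at 1.03, 1.30, 1.51 and 1.37 CPM in Brg1 WT and at 2.61, 3.03, 2.09 and 1.59 CPM in Brg1 cKO (log2 fold change 0.83 ± 0.24, adjusted p = 0.0381). Meis2 stood at 2.15, 2.79, 2.65 and 2.29 CPM in Brg1 WT and at 3.14, 3.62, 3.13 and 2.96 CPM in Brg1 cKO and did not pass (log2 fold change 0.38 ± 0.16, adjusted p = 0.126). With the Sertoli cell median of 0.38 taken as no change, Meis1, Meis2 and Meis3 had log2 fold changes of 0.024, -0.00064 and 0.45 and adjusted p of 0.874, 0.998 and 0.144. The medians of the Leydig and of the myoid and stromal markers, 0.66 and 0.59, were above the log2 fold changes of Meis1 and Meis2, and the part of those cells was not tested. The call of Meis1 was lost without Brg1 WT replicates 1 or 2 or Brg1 cKO replicates 1 or 3 (adjusted p = 0.0577 to 0.0719), and that of Meis3 without each library but Brg1 cKO replicate 4 (0.0604 to 0.0997). Meis1 overlaps the antisense gene Gm16140 and, on the same strand, Gm37818. Among the Irx genes, Irx2, a gene of the developing nervous system, fell, averaging 1.20 ± 0.285 CPM in Brg1 WT against 0.505 ± 0.272 CPM in Brg1 cKO (SD, n = 4, log2 fold change -1.24 ± 0.37, adjusted p = 0.0424). Irx2 was over the filter cutoff in all 4 Brg1 WT libraries but in only 2 Brg1 cKO libraries. It lost its call in 7 of the 8 fits without a single library (each but Brg1 cKO replicate 2, adjusted p = 0.064 to 0.114). The call was also lost with the pan-germ cell median taken as no change (log2 fold change -0.87, adjusted p = 0.0673).

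**Figure D2:**
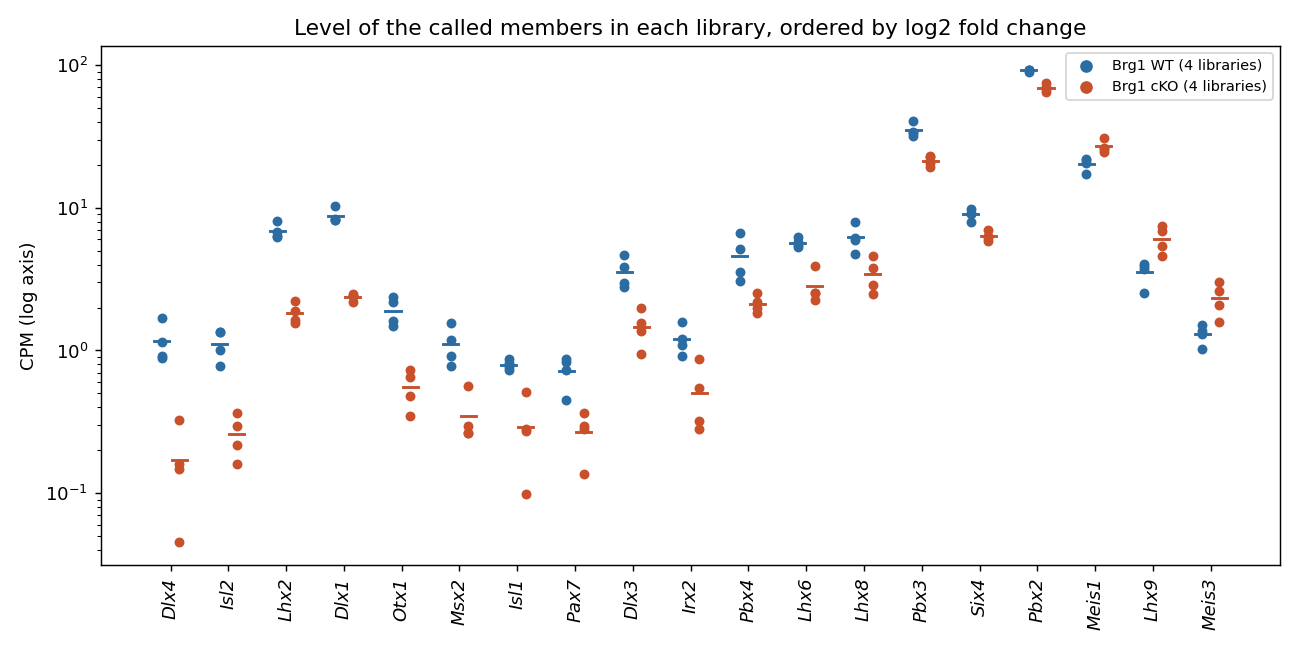
CPM on a log axis in each library (points) and the mean of each genotype (short lines) for 19 of the 21 called members, ordered from the largest fall to the largest rise. For Dlx1 the Brg1 WT points sit between 8.17 and 10.3 CPM and the Brg1 cKO points between 2.20 and 2.47 CPM, while for Lhx8 the groups nearly meet.

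The 32 members below the count filter had 1 to 96 counts over all 8 libraries, and no genotype mean was above 0.651 CPM. The Brg1 WT mean was the higher one for 21 of them and the Brg1 cKO mean for 11. All 4 Brg1 cKO libraries were below all Brg1 WT libraries for 5, among them Vax2, Irx1 and Irx5, and above them for 3, which were Nkx2-3, Nkx3-2 and Dlx5, against the 11.2% and 7.93% of all genes given above. When the filter was dropped, 7.33% of 22997 genes were called lower and 5.05% higher, and 5 of these scarce members were called. Nkx2-3, a gene of spleen and gut vessels, went from 0.101, 0.0383, 0.183 and 0.163 CPM in Brg1 WT to 0.320, 0.984, 0.722 and 0.396 CPM in Brg1 cKO (log2 fold change 2.28 ± 0.53, adjusted p = 0.0183). It had 14 counts over the Brg1 WT libraries and 60 over the Brg1 cKO libraries. Nkx3-2, a gene of the axial skeleton, was also called higher in that fit (adjusted p = 0.0309), but on 2 counts over the Brg1 WT libraries and 18 over the Brg1 cKO libraries, too few for a size to be read. Vax2 and Irx1, with 74 and 63 counts over the Brg1 WT libraries and 22 and 10 over the Brg1 cKO libraries, were called lower. Their log2 fold changes were -1.51 ± 0.39 (adjusted p = 0.0286) and -2.25 ± 0.62 (adjusted p = 0.0371). Irx1 stood at 0.371, 0.307, 1.07 and 0.366 CPM in Brg1 WT, so Brg1 WT replicate 3 weighed most in its fall. Dlx5 was at 0 counts in Brg1 WT and at 5 counts in Brg1 cKO, too few for any difference to be read.

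**Figure D3:**
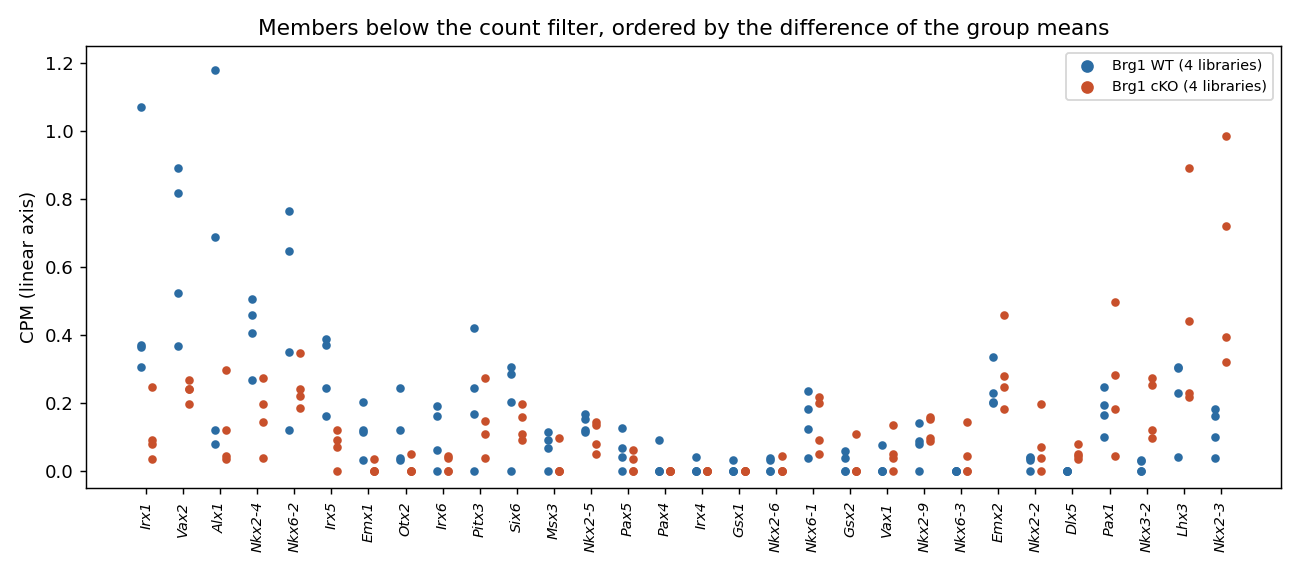
CPM on a linear axis in each library for 30 of the 32 members below the count filter, ordered by the difference of the genotype means. Most points lie under 0.4 CPM. Vax2 and Irx1 lie on the side of higher Brg1 WT means and Nkx2-3 at the far end on the side of higher Brg1 cKO means.

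Several members lie next to each other in the genome. In RefSeq annotation of GRCm38.p6, 15 pairs of members had no other protein-coding gene between them, and for 4 pairs both genes were tested, among them Dlx1 with Dlx2, Dlx3 with Dlx4 and Six3 with Six2. Both log2 fold changes were below 0 in each of the pairs named, but only for Dlx3 with Dlx4 were both genes called. Values below 0 were common among the 46 tested members: 17 were called lower, and 15 that were not called were also below 0. Promoter sequences were given for 54 members, and their 250 bases upstream of the start held a median of 16 CG dinucleotides, against 11 over 15754 genes of the table. At least 10 CG dinucleotides were found for 81.5% of these members and for 52.8% of all those genes. Members called lower had a median of 16 (12 genes) and those called higher a median of 12 (3 genes). The upstream windows of Lhx2 and Dlx1, with the smallest adjusted p among the falls, and of Lhx9, the LIM gene that rose, are printed 5′ to 3′ on the strand of the gene with each CG in capitals. They are the first listed window of Lhx2 (plus strand, chr2:38339031-38339280), that of Dlx1 (plus strand, chr2:71529195-71529444) and that of Lhx9 (minus strand, chr1:138842445-138842694), all in GRCm38.p6.
Lhx2: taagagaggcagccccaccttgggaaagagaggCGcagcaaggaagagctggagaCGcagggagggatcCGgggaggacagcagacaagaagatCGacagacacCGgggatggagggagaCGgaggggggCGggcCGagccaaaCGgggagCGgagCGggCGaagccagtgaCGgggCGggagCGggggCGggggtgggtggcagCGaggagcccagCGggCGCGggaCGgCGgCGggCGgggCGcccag
Dlx1: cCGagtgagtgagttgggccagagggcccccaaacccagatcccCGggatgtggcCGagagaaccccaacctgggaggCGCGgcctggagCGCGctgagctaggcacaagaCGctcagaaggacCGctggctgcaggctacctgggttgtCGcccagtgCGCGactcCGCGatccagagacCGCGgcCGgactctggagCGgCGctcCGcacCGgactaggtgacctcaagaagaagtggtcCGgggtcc
Lhx9: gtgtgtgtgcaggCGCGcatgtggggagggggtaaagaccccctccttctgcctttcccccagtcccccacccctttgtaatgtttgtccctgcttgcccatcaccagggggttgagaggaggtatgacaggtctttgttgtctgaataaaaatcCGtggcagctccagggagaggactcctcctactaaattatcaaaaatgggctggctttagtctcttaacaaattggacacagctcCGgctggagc

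These windows hold 25, 22 and 4 CG dinucleotides. Lhx8, which fell, also has 4 in its window, so the count does not divide falls from rises. The letters TAATTA, a core that many homeodomains bind and that reads the same on both strands, occurred in the windows of 5.56% of the members and of 5.05% of all genes with a window. No methylation, binding or accessibility was measured in the libraries analysed here, and these matches are descriptions of sequence.

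Partner proteins of homeodomains were also counted. Of 24 tested partners (LIM adaptors, EYA and DACH proteins, Groucho corepressors and TALE cofactors) 3 were called higher, 2 lower and 19 not, against the 8.79% and 11.8% of all tested genes given above. Lmo1, a LIM-only protein that competes for LIM cofactors, stood at 8.00, 7.05, 7.98 and 7.57 CPM in Brg1 WT and at 2.61, 2.95, 1.76 and 1.43 CPM in Brg1 cKO (log2 fold change -1.80 ± 0.22, adjusted p = 0.00218). Lmo4, of the same family, rose, averaging 61.5 ± 8.68 CPM in Brg1 WT against 83.0 ± 8.63 CPM in Brg1 cKO (SD, n = 4, log2 fold change 0.43 ± 0.11, adjusted p = 0.025). The call of Lmo4 was lost without Brg1 WT replicates 1 or 2 or Brg1 cKO replicates 1 or 3 (adjusted p = 0.062 to 0.0737), and with the Sertoli cell median taken as no change its log2 fold change was 0.052 (adjusted p = 0.725). Pbxip1, which binds Pbx proteins, rose from 55.7 ± 4.21 to 72.2 ± 3.54 CPM (log2 fold change 0.38 ± 0.070, adjusted p = 0.0086), and with the Sertoli cell median taken as no change its value was -0.0048. Among homeobox genes of other families outside the Hox clusters, 49 of 87 in the table were tested. Of these 11 were called lower and 3 higher (Zeb1, Zeb2 and Hmbox1), against the same 11.8% and 8.79% of all tested genes. Hmx1, a gene of sensory neurons and the ear, went from 6.87 ± 0.762 to 1.48 ± 0.424 CPM (log2 fold change -2.21 ± 0.21, adjusted p = 0.000741). Dmbx1, a gene of the midbrain, went from 3.65 ± 0.366 to 0.830 ± 0.228 CPM (log2 fold change -2.11 ± 0.23, adjusted p = 0.00136), and Pou4f1, of sensory neurons, from 20.3 ± 2.24 to 7.60 ± 1.22 CPM (log2 fold change -1.42 ± 0.14, adjusted p = 0.000741).

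Lhx2, Dlx1, Isl1 and Isl2 are known from neurons, and markers of nerve and glia are therefore given. They summed to 192.6 to 251.6 CPM in Brg1 WT and to 172.1 to 247.0 CPM in Brg1 cKO, with overlap. Most of that sum was Tubb3, at 113.5 to 159.8 CPM in Brg1 WT and 97.6 to 175 CPM in Brg1 cKO. Of 8 tested markers 3 were called lower, among them Sox10 and Elavl3, and 0 higher. Tubb3, Mbp and Elavl4 were not called (adjusted p = 0.433, 0.941 and 0.0895). Sox10 went from 5.55 to 2.19 CPM and Elavl3 from 21.8 to 6.39 CPM on average, while S100b, at 1.47 and 3.02 CPM, was not called (adjusted p = 0.122). Snap25 and Stmn2, below the count filter, averaged 0.298 and 0.151 CPM in Brg1 WT and 0.690 and 0.224 CPM in Brg1 cKO. Th was at or below 0.0401 CPM in every library. The part of nerve and glia in the falls was not tested. The pan-germ cell list had 3 of 15 markers called lower, among which Tex101 went from 178 to 90.2 CPM, while Ddx4 and Dazl, defining genes of germ cells, were not called (adjusted p = 0.175 and 0.116).

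Without Brg1 WT replicates 1 and 2, an alternative chosen after the data were seen, 2.08% of 16436 tested genes were called lower and 0.584% higher. 5 members were still called lower, among them Dlx1, Lhx2, Pbx2 and Pbx3, and no member was called higher with edgeR (5 were higher at an unadjusted p under 0.05). All 21 members kept their direction. The log2 fold changes of Dlx1 and Lhx2 were -1.95 and -2.01 in that fit, close to those with all libraries, and that of Pbx4 moved towards 0, to -0.64. With 2 Brg1 WT libraries left, Dlx4, Otx1 and Isl2 narrowly missed the threshold at adjusted p of 0.0571, 0.0508 and 0.0543.

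**Figure D4:**
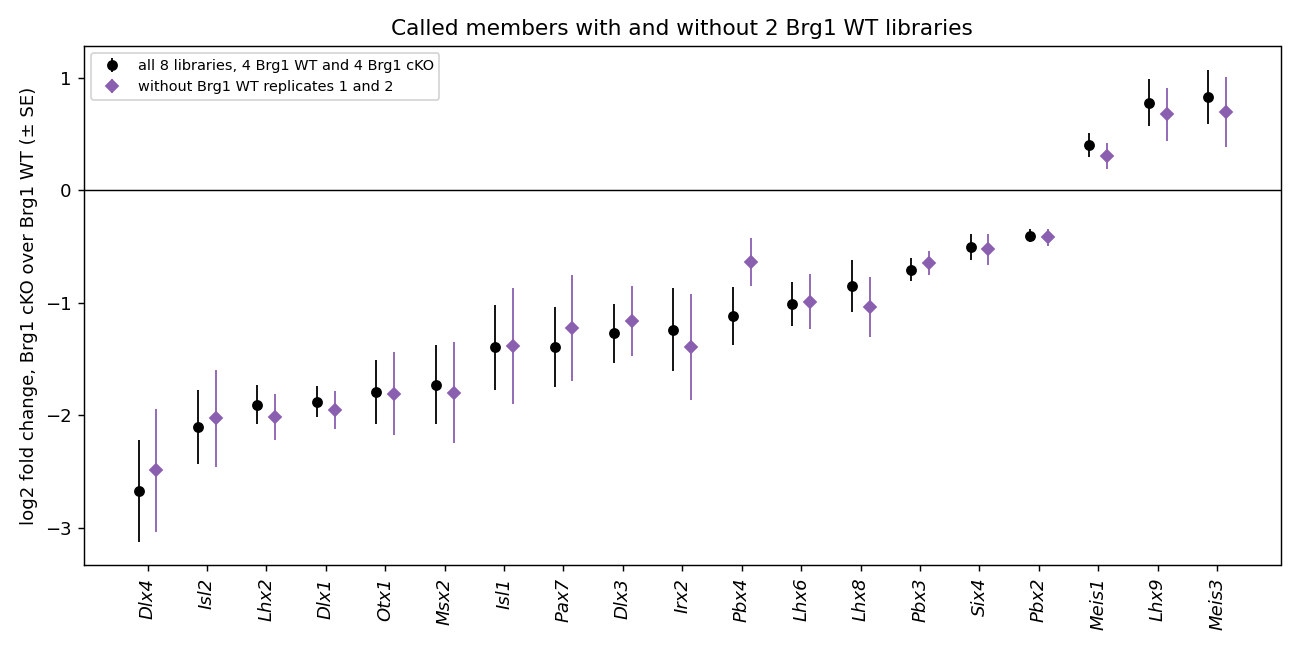
Log2 fold change (± SE) of 19 of the 21 called members from all 8 libraries (black circles) and without Brg1 WT replicates 1 and 2 (purple diamonds), ordered by the value from all libraries. Directions are kept for all 19, and Pbx4 shows the widest shift, from -1.12 to -0.64.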

How the data were processed

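RNA-seq of 4 Brg1 WT and 4 Brg1 cKO libraries was analysed from estimated counts per gene symbol that the authors deposited, unscaled. The submitters' processing notes name kallisto 0.42.5, which estimates counts from reads, the build mm9 and edgeR. Per the labels' protocols the library kit was for stranded mRNA. The sources used here do not give the annotation, the use of strand or the summing of transcripts to symbols. Groups and replicate numbers came from the sample titles.

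Counts were rounded, filtered with filterByExpr by genotype (minimum count 10, about 0.392 CPM in 4 libraries) and scaled with TMM. The test was the robust quasi-likelihood test of edgeR 4.0.16 in R 4.3.3, with genotype as its single term, Benjamini-Hochberg adjustment over all tested genes and a threshold of 0.05. The script was first tested on simulated data. CPM use TMM-scaled totals, and SE is the absolute log2 fold change over the square root of F. No pair of libraries of a genotype agreed within sampling noise (lowest chi-square per degree of freedom 20.2).

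The members, the marker and partner lists and the alternatives were chosen with earlier results of these data known. Named were every called member, in each subfamily the most abundant tested gene not called, and up to 3 called genes with the smallest adjusted p of each partner list; other members and markers with values were chosen after these were seen. Alternatives were upper-quartile or RLE factors, dropping the filter, requiring 1 CPM in 4 libraries, DESeq2 1.42.0, limma-voom (limma 3.58.1), the replicate number as a block and leaving out each library. Fits without Brg1 WT replicates 1 and 2, and with the pan-germ cell or Sertoli cell median as no change, were chosen after seeing the data. Sequences came from GENCODE M21 transcripts and RefSeq promoters of GRCm38.p6, matched by symbol. A few genes that met these rules are not reported here and are left out of the figures, while counts over members include them.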

Additional observations from a re-analysis of the deposited data

Results flagged for a closer look

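Among the 27 members named by rule and Smarca4, examined in 56 groups of 4 libraries, 3 libraries lay far from the others of their genotype by Dixon's ratio, which chance alone passes in about 1 of 20 groups. Dlx1 was at 10.3 CPM in Brg1 WT replicate 4 and at 8.17 to 8.33 CPM in Brg1 WT replicates 1 to 3 (ratio 0.926). Msx2 was at 0.566 CPM in Brg1 cKO replicate 4 and at 0.264 to 0.296 CPM in the other Brg1 cKO libraries (ratio 0.895). Lhx6 was at 3.92 CPM in Brg1 cKO replicate 2 and at 2.27 to 2.54 CPM in the others (ratio 0.834). Each of these 3 genes was still called lower with that library left out.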

How the results depend on the processing

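Of the 21 called members, 4, among them Lhx2, Dlx1 and Pbx3, were called in every one of the alternatives that gave them a value, and all 21 kept their direction. The number of members called lower, 17, became 11 with the filter of 1 CPM, 5 without Brg1 WT replicates 1 and 2 and 26 with the Sertoli cell median as no change, and ran from 11 to 18 with single libraries left out. The number called higher, 4, became 0 without Brg1 WT replicates 1 and 2 and with the Sertoli cell median (5 and 0 at an unadjusted p under 0.05), became 9 with the pan-germ cell median, and ran from 0 to 3 with single libraries left out. The number of all genes called, 3312, became 438, 9258 and 8582 without Brg1 WT replicates 1 and 2 and with the pan-germ cell and Sertoli cell medians, and ran from 1608 to 3477 with single libraries left out. The last change of scale moves all genes by 0.38 on the log2 scale, which by construction turns small rises into falls, and the pan-germ cell median moves them by 0.37 the other way. With the replicate block the counts were 1914 genes, 12 members lower and 0 members higher (6 at an unadjusted p under 0.05). Same-numbered libraries deviated with correlations of -0.286, 0.23, -0.468 and 0.185, so the numbers do not pair them. Among the named genes that were not called, the direction turned for Pax2, to -0.21 without Brg1 WT replicates 1 and 2 and -0.13 with the Sertoli cell median, and with the latter for Meis2, to -0.00064, and Six5, to -0.16. Other tested members that were not called turned too without Brg1 WT replicates 1 and 2, namely Pax6 to -0.078, Irx3 to 0.044 and Prrx2 to 0.10. Pbxip1, which was called, turned to -0.0048 with the Sertoli cell median. The causes were not tested beyond the change of scale. Dlx4, Isl1, Isl2, Msx2, Pax7, Irx2 and Lhx5 gave no value with the filter of 1 CPM. Members with fewer than 30 counts over 8 libraries, 18 of the 32 below the filter, are too shallow for the size of a difference to be read.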
